A study of Mus musculus with 18 samples.

Results

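The 40 genes described here carry the steps of autophagy and the lysosome, and they were chosen by symbol: every listed symbol had 1 line in the deposited read-count table of 29112 genes. All 40 also passed a filter on low counts that 15074 genes passed, in whichever group a gene was highest. RNA was measured in 18 libraries, 3 in each of 6 groups, from cells that the labels call HL-1. HL-1 is an immortal line derived from mouse atrial muscle. Mimic cells were transfected with a mimic of miR-200a-3p, a synthetic duplex that adds activity of this microRNA, and mimic control cells with its negative control. Inhibitor cells were transfected with an inhibitor of miR-200a-3p, and inhibitor control cells with its negative control. These 4 groups were all labelled as treated with high glucose and were harvested 48 h after transfection with HiPerFect. The high-glucose group was untransfected and treated with high glucose, and the vehicle group was untransfected and given vehicle. Not given in the sources used here are the glucose concentration and its duration, the sequences of the negative controls, and whether any reagent was added to untransfected cells. Whether the 3 libraries of each group are separate cultures is not stated either, and p-values therefore reflect a spread between samples that may be technical.

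In autophagy, a kinase complex built round Ulk1 or Ulk2 starts a membrane that is seeded by Atg9 vesicles and marked with phosphatidylinositol 3-phosphate by a lipid kinase complex. A ubiquitin-like conjugation machinery then attaches Atg8 proteins (LC3 and GABARAP) to the membrane, which closes round its cargo and fuses with the lysosome. Inside the lysosome a proton pump keeps the pH low for hydrolases such as the cathepsins, and the transcription factors Tfeb, Tfe3 and Mitf are known to drive many of the genes involved. Heart muscle cells depend on this route to clear damaged mitochondria and stored glycogen.

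Sequences of miR-200a-3p and of matching sites in these genes are shown first because the transfected reagents act through this microRNA. The mature microRNA (RefSeq, GRCm38.p6, chr4:156054911-156054932, minus strand) has 22 bases, and capitals mark its seed, bases 2 to 8.
mmu-miR-200a-3p: uAACACUGucugguaacgaugu
Sites were searched in the 3′ UTR (untranslated region) of 1 canonical transcript per gene, as annotated by GENCODE M39 on GRCm39. The letters were CAGTGTT, which pairs with the seed, CAGTGTTA (an 8mer site, which contains CAGTGTT) and AGTGTTA (a 7mer-A1 site), on the transcribed strand. At least 1 such site lay in 14 of the 40 genes (35.0%), against 3554 of 12899 tested genes with a UTR (27.6%). An 8mer site lay in 3 of the 40 (7.5%), against 685 of the 12899 (5.31%). The median UTR was 1193 nt long in the 40 genes and 1348 nt in all tested genes. The 8mer sites of 3 genes are shown, and then the sites of 3 further genes taken in order of gene name, passing over Atg12. Matching letters are in capitals.
Atg9b: ggcatggttcaactCAGTGTTAgggaag
Atp6v1a: catatgtatttttcCAGTGTTAaatctc
Ulk2: taatgtgtacttctCAGTGTTAaccctg
Atg16l1: ctgtgcgtgcagtgCAGTGTTggtaag
Atg4b: ttagctttgattttAGTGTTAacaagt
Atg5: ctcccgttcctttcCAGTGTTtttgtt
In GRCm39 the matching letters lay at chr5:24589754-24589761 in Atg9b (minus strand, exon 14 of 14), at chr16:43905923-43905930 in Atp6v1a (minus strand, exon 15 of 15) and at chr11:61667526-61667533 in Ulk2 (minus strand, exon 27 of 27). Those of Atg16l1 lay at chr1:87719776-87719782, of Atg4b at chr1:93717214-93717220 and of Atg5 at chr10:44239935-44239941, all on the plus strand and in the last exon. Ulk2 held 3 sites in its UTR, and Atg12, Atp6v1a, Mitf and Optn held 2 each. Atp6v1h, Ctsl, Ulk1, Atg4b and Gabarapl2 held 1 site each, as did Atg9b, Atg16l1, Atg5 and Atg7. A match describes these letters and is not a tested target.

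Promoters were read for the letters CACGTG, the E-box at the core of the element that Tfeb, Tfe3 and Mitf are known to bind. RefSeq promoters (GRCm38.p6, from 250 bases before the start to 50 after it) were found for 33 of the 40 genes. CACGTG, which reads the same on both strands, lay in the promoters of 12 of these 33 genes (36.4%), in 1216 of 10711 tested genes (11.35%) and in 2349 of all 32851 promoters (7.15%). The longer palindrome TCACGTGA, which contains CACGTG, lay in 6 of the 33 genes (18.2%), in 229 of the 10711 tested genes (2.14%) and in 320 of all promoters (0.97%). The 6 genes with the longer form are shown, with TCACGTGA in capitals, because they come from 4 different roles: conjugation, ion channel, hydrolases and proton pump. For Ctsa, which held a pair of copies, the first is shown.
Atg3: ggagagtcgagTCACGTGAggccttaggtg
Mcoln1: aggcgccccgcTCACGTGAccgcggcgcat
Ctsa: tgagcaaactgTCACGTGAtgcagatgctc
Ctsd: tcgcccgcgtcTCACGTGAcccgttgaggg
Atp6v0d1: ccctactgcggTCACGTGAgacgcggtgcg
Atp6v1a: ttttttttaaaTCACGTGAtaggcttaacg
In GRCm38.p6 these windows lie at chr16:45158746-45158775 (Atg3), chr8:3500462-3500491 (Mcoln1) and chr2:164833749-164833778 (Ctsa) on the plus strand. Those of Ctsd (chr7:142387908-142387937), Atp6v0d1 (chr8:105566050-105566079) and Atp6v1a (chr16:44139373-44139402) lie on the minus strand. CACGTG without the flanking T and A also lay in the promoters of Atg14, Atg5, Atg7, Lamp1 (4 copies), Ctsl and Gaa.

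Library totals ran from 33655916 to 37928790 reads, and the limit set by a count of 0, which is 3 reads, came to 0.0791 to 0.0954 CPM (read counts scaled to a common library size, with TMM factors). Such intervals and floors cover counting error only. Of the cardiomyocyte markers, Nppa, the atrial natriuretic peptide gene, and Myh6, the cardiac myosin gene, were low, with at most 0.0286 and 0.197 CPM in any library. Tnnt2 and Gata4, from the same list, had 15.6 to 76.2 and 7.98 to 14.3 CPM and made up most of the sums that follow. Summed over the cardiomyocyte markers with a line in the table, levels were 34.5 to 37.9 CPM in mimic, 33.2 to 34.9 in mimic control, 79.7 to 90.2 in inhibitor, 72.9 to 90.6 in inhibitor control, 51.3 to 67.9 in high-glucose and 54.2 to 58.3 CPM in vehicle libraries. Fibroblast markers summed to 1067 to 2486 CPM in the transfected groups and to 10007 to 11956 CPM in the untransfected ones. Col3a1 alone had 8412 to 9666 CPM in the untransfected libraries. Mimic replicate 2 stood apart, since macrophage markers summed to 1342 CPM in it, against 55.3 and 57.2 CPM in the other mimic libraries and 37.0 to 73.3 CPM in the rest. Each mimic result is therefore also given without that library where its call, its direction or its size by over 1.5 times changed.

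Levels were compared between genes in FPKM, the deposited values scaled to transcript length and library size. Over all 18 libraries Ctsl, a cysteine protease of the lysosome, had the highest mean (281 FPKM), followed by Lamp1, an abundant lysosomal membrane glycoprotein (230.2 FPKM), and Ctsb, another cysteine protease (122 FPKM). Hexa (66.4), Gabarap (65.0), Optn (56.4) and Atg3 (50.2) came next. At the low end stood Atg10 (1.38), Tfeb (1.43), Atg9a (2.17), Mitf (2.22) and Atg9b (2.41 FPKM). Genes also differed in how far apart their groups lay. Between its highest and lowest group mean in CPM, Becn1 differed by 1.19 times and Ctsl by 1.27 times, whereas Atg9b differed by 22.2 times, Tfeb by 8.77, Map1lc3a by 4.37, Atg3 by 4.33, Ulk2 by 4.12 and Wipi1 by 4.00 times.

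**Figure D1:**
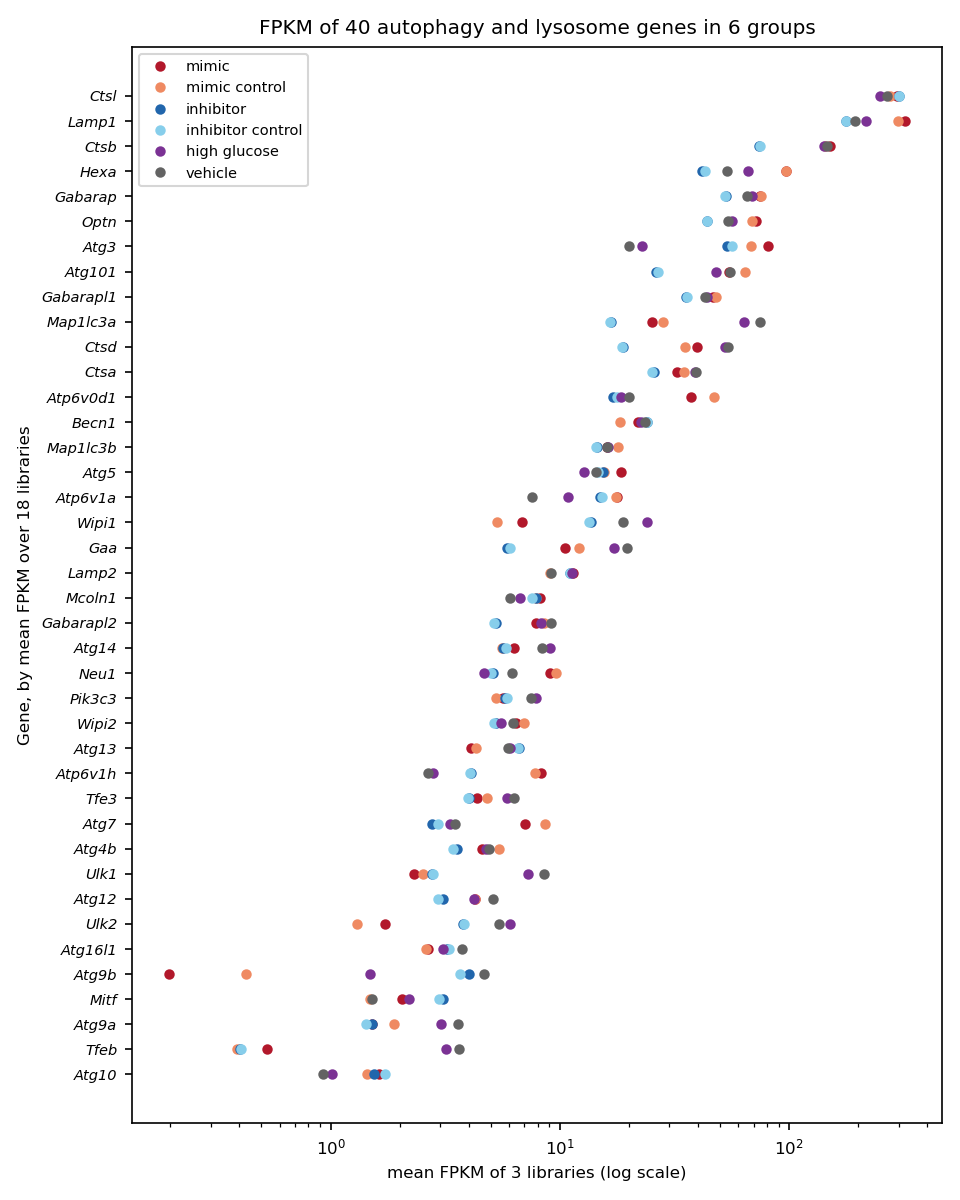
Mean FPKM (log axis) of each of the 40 genes in the 6 groups, 3 libraries per group, ordered by the mean over 18 libraries. Ctsl leads at 281 FPKM and Atg10 is lowest at 1.38, and Atg9b and Tfeb have the widest gaps between groups.

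In the CPM summed over all 40 genes, mimic libraries had 6535 to 6784 and mimic control libraries 6546 to 6773, inhibitor libraries 4745 to 5041 and inhibitor control libraries 4840 to 4987, and high-glucose libraries 5369 to 5457 and vehicle libraries 5367 to 5499. Each reagent thus overlapped its own control in this sum, as did high glucose and vehicle, while the 3 pairs of groups did not overlap each other. Cathepsins and other hydrolases made up more of the sum than any other role, with 2643 to 3722 CPM over all libraries. Because RNA was taken from whole cultures, fewer cells of a type and less RNA per cell cannot be told apart.

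**Figure D2:**
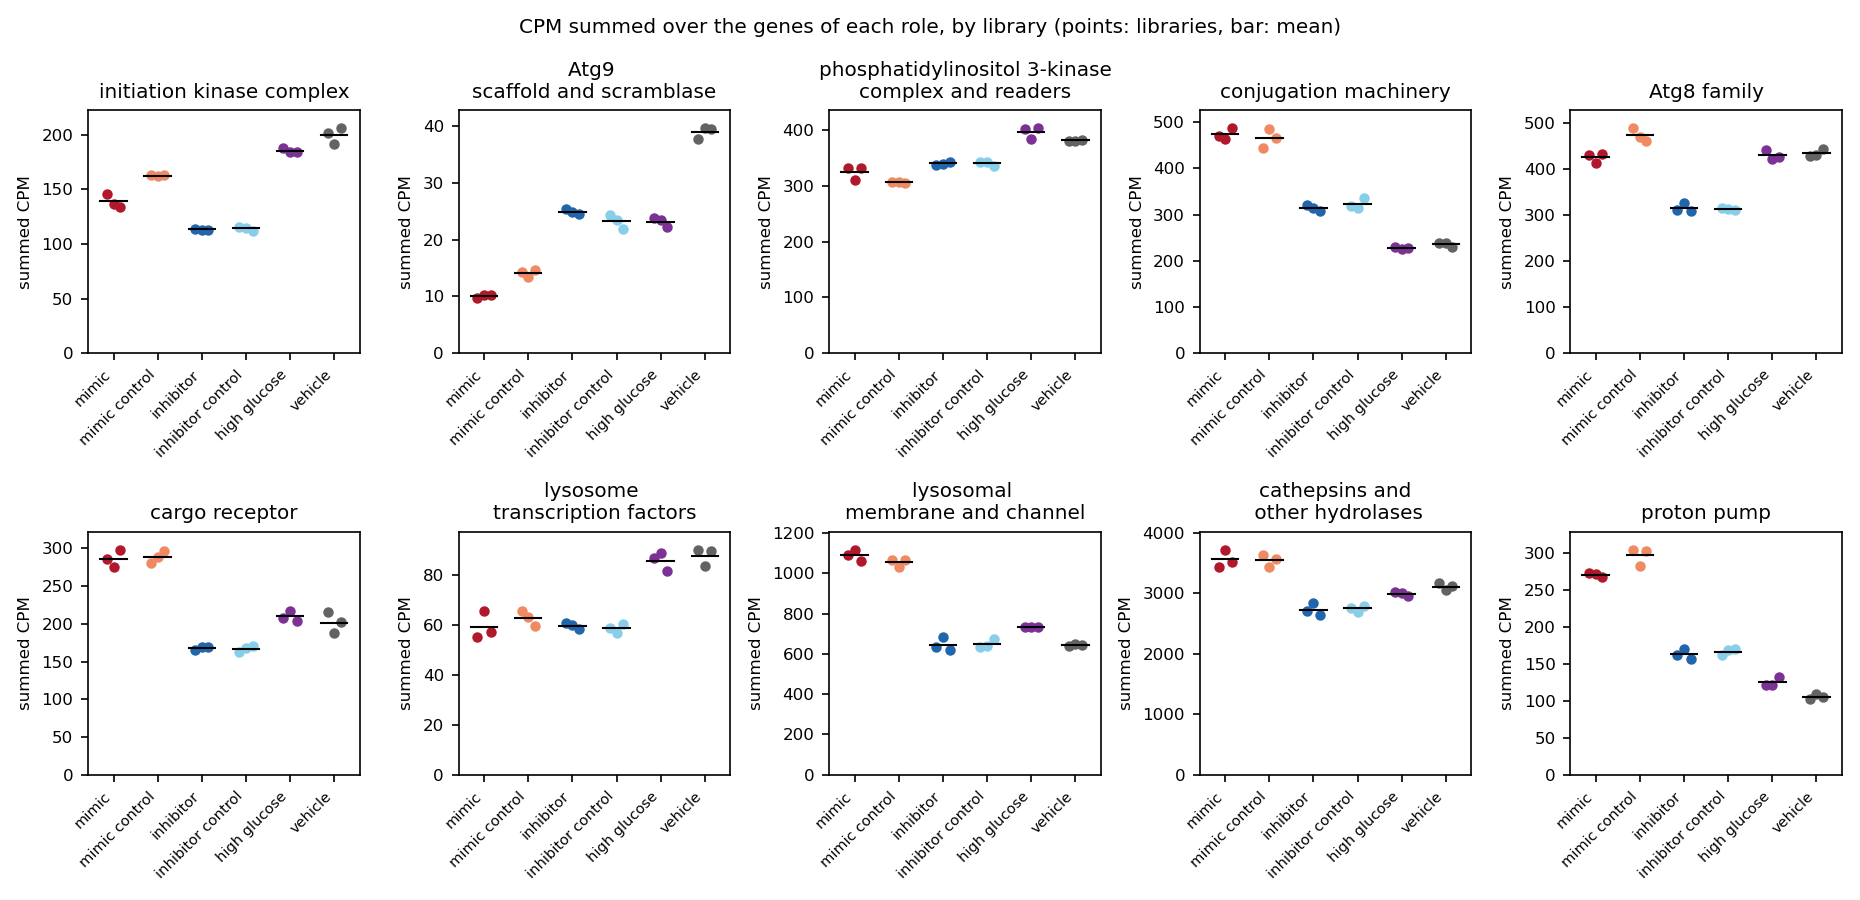
CPM summed over the genes of each of 10 roles in every library, in mimic, mimic control, inhibitor, inhibitor control, high-glucose and vehicle cells; points are libraries and bars are means. The conjugation machinery ranges from 225 to 239 CPM in untransfected libraries and from 309 to 487 CPM in transfected ones, and the Atg9 pair is highest in vehicle libraries (37.8 to 39.6 CPM).

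How the glucose treatment alone moved these genes was read from untransfected cells, high glucose against vehicle. Of the 40 genes, 6 were higher in high glucose, where 12.0% of all tested genes were called higher, and 11 were lower, where 12.2% were. Calls were made at an adjusted p under 0.05 over all 15074 tested genes. The median log2 fold change was -0.03 over the 40 genes and -0.00 over all tested genes. The genes called higher were Mitf, 2 lysosomal membrane proteins (Lamp1 and Lamp2), the hydrolase Hexa, the proton pump subunit Atp6v1a and Wipi1. The genes called lower were Ulk1, Atg101, Atg9a, Atg9b, Wipi2, Atg5, Atg12, Atg16l1 and Map1lc3a, beside the hydrolases Gaa and Neu1. Of these, Atg9a, Wipi2, Atg5, Map1lc3a and Gaa lost the call in some alternative processing, as did Lamp1 among the higher genes. No initiation, Atg9, conjugation or Atg8 gene was called higher, while Wipi1, of the lipid kinase and reader role, was. Only 12.0% of all tested genes were called higher, and this grouping of roles was not tested. By library, high glucose lay wholly above vehicle in 10 genes, wholly below in 13 and overlapped it in 17, and all 17 called genes were among those that did not overlap. Such separation was not counted over all tested genes, so these counts describe the 40 genes only.

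Atg9b, a transmembrane lipid scramblase of the Atg9 family (GRCm39 chr5:24589179-24597141, minus strand), had 5.16, 5.93 and 6.31 CPM in high-glucose cells, against 17.2, 19.6 and 18.2 CPM in vehicle cells. The log2 fold change was -1.66 (SE 0.0973, adjusted p = 4.45e-10), and no library of one group reached the other. Its relative Atg9a had 18.6, 17.4 and 16.0 CPM in high-glucose cells, against 20.6, 20.0 and 21.3 CPM in vehicle cells, a log2 fold change of -0.25 (SE 0.0696, adjusted p = 0.0129). That smaller call was lost without vehicle replicate 3 (adjusted p = 0.056) or without high-glucose replicate 3 (adjusted p = 0.0818), although the groups did not overlap. The count of genes called lower was likewise 6 without vehicle replicate 3 and 7 without high-glucose replicate 3.

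Of the initiation kinases, Ulk1 had 47.5, 46.0 and 46.6 CPM in high-glucose cells, against 56.6, 52.7 and 55.7 CPM in vehicle cells (log2 fold change -0.24, SE 0.0558, adjusted p = 0.00395). Atg101, which steadies the kinase complex, was also lower, by a log2 fold change of -0.19. Ulk2 (0.16, adjusted p = 0.0855) and the scaffold Atg13 (0.04, adjusted p = 0.748) were not called. Among the readers of phosphatidylinositol 3-phosphate, Wipi1 had 107, 98.8 and 109 CPM in high-glucose cells, against 82.5, 84.4 and 79.7 CPM in vehicle cells (log2 fold change 0.35, SE 0.0555, adjusted p = 9.89e-05). Its paralog Wipi2, which recruits the conjugation machinery, had a log2 fold change of -0.16 (adjusted p = 0.0166), so the pair moved in opposite directions. The lipid kinase genes Becn1 (-0.05), Pik3c3 (0.09) and Atg14 (0.13) were not called.

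In the conjugation machinery, Atg12, the ubiquitin-like protein joined to Atg5, had 32.2, 30.3 and 35.1 CPM in high-glucose cells, against 40.8, 39.8 and 36.4 CPM in vehicle cells. Its log2 fold change was -0.26 (SE 0.0639, adjusted p = 0.00491). Atg16l1, which carries the Atg12 and Atg5 conjugate to the membrane, had 29.1, 30.4 and 29.6 CPM in high-glucose cells, against 37.9, 34.3 and 35.4 CPM in vehicle cells (log2 fold change -0.27, SE 0.0529, adjusted p = 7.87e-04). All 3 libraries were lower in both genes, and Atg5 itself was lower by a log2 fold change of -0.17. The E1-like enzyme Atg7 (-0.06), the E2-like enzymes Atg3 (0.20, adjusted p = 0.0523) and Atg10 (0.15), and the protease Atg4b (-0.03) were not called. Of the Atg8 proteins Map1lc3a was lower (log2 fold change -0.22, adjusted p = 0.0415), and Map1lc3b (0.02), Gabarap (0.07), Gabarapl1 (0.03) and Gabarapl2 (-0.13) were not called. Nor was the cargo receptor Optn (0.06).

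Mitf, one of the 3 lysosome transcription factors, had 11.9, 14.0 and 14.8 CPM in high-glucose cells, against 9.00, 10.0 and 8.95 CPM in vehicle cells. It rose by a log2 fold change of 0.54 (SE 0.130, adjusted p = 0.00459), with no overlap, while Tfeb (-0.17) and Tfe3 (-0.10) were not called. Atp6v1a, the catalytic subunit of the proton pump, had 60.4, 62.7 and 72.9 CPM in high-glucose cells, against 42.5, 48.9 and 43.3 CPM in vehicle cells (log2 fold change 0.54, SE 0.0669, adjusted p = 5.73e-06). The other pump subunits in the set, Atp6v0d1 (-0.11) and Atp6v1h (0.09), were not called. Hexa, the alpha subunit of the hexosaminidase that degrades gangliosides, had 136, 133 and 126 CPM in high-glucose cells, against 104, 99.2 and 114 CPM in vehicle cells (log2 fold change 0.32, SE 0.0519, adjusted p = 1.37e-04).

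Lamp2, whose loss is known to cause a heart muscle disease with stored autophagosomes, had 100.0, 105 and 116 CPM in high-glucose cells, against 84.0, 93.7 and 81.0 CPM in vehicle cells (log2 fold change 0.31, SE 0.0632, adjusted p = 0.00107). Lamp1 had 581, 577 and 570.5 CPM in high-glucose cells, against 508, 513 and 518 CPM in vehicle cells (log2 fold change 0.17, SE 0.0447, adjusted p = 0.00903). Both were higher in all 3 libraries. Neu1, the lysosomal sialidase, went the other way, with 17.2, 18.1 and 16.5 CPM in high-glucose cells, against 23.4, 22.3 and 23.1 CPM in vehicle cells (log2 fold change -0.41, SE 0.0567, adjusted p = 2.03e-05). Gaa, which degrades glycogen in the lysosome, was lower by a log2 fold change of -0.18 (adjusted p = 0.0178). The channel Mcoln1 (0.15) and the cathepsins Ctsa (-0.00), Ctsb (-0.04), Ctsd (-0.03) and Ctsl (-0.09) were not called.

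**Figure D3:**
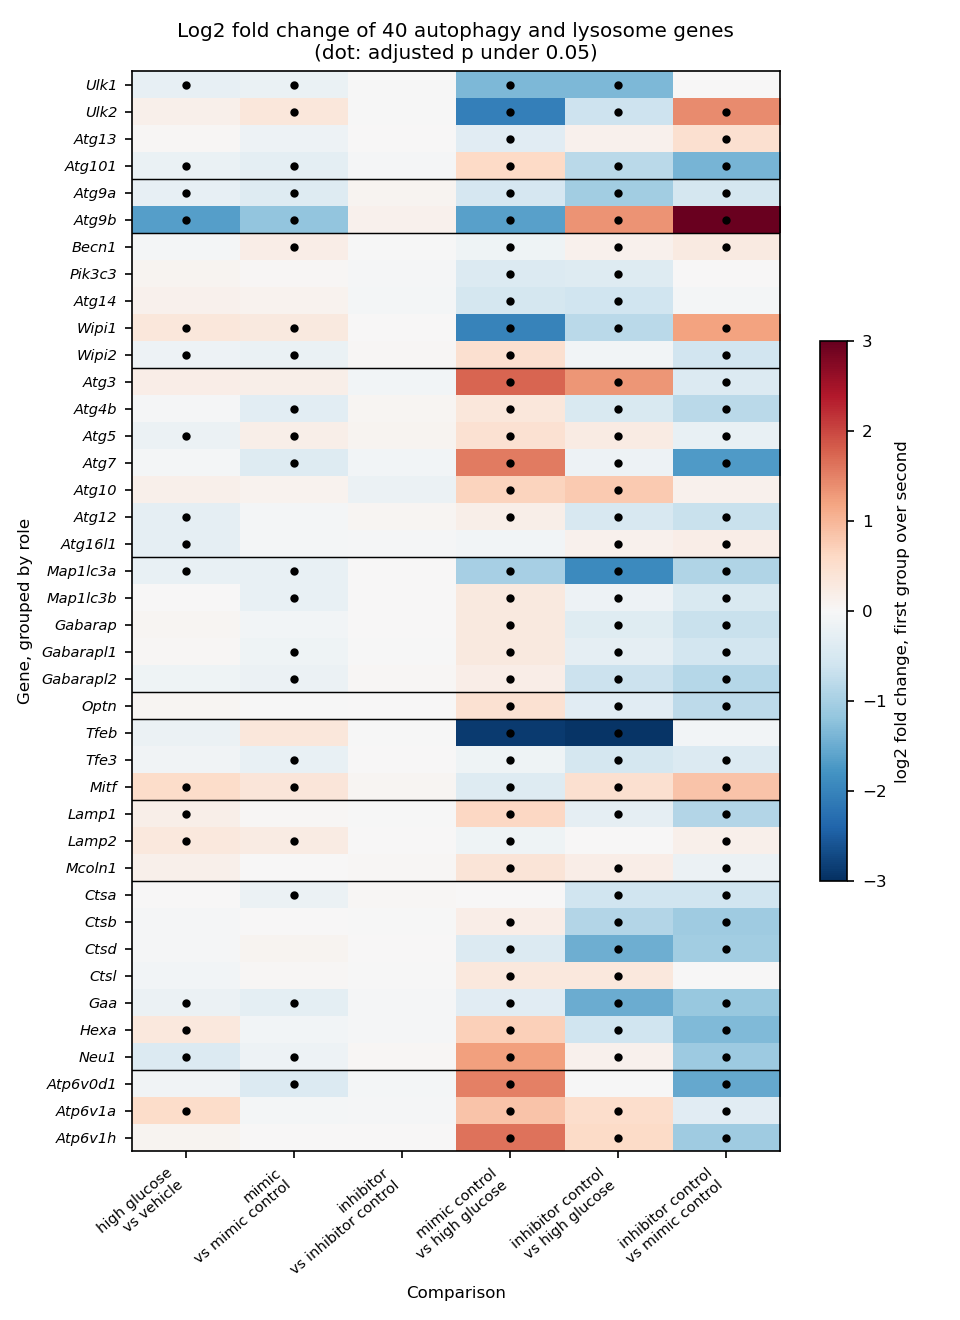
Log2 fold change of the 40 genes, grouped by role, in 6 comparisons; colour gives the first-named group over the second and a dot marks an adjusted p under 0.05. The column for the inhibitor holds no dot, and the 3 columns that set negative controls against high glucose or each other hold 38, 36 and 34 dots.

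The mimic was compared with its own negative control to show what added miR-200a-3p did in high glucose. With the mimic, 6 of the 40 genes were higher, against 15.8% of all tested genes, and 16 were lower, against 18% of all tested genes. The median log2 fold change was -0.06 over the 40 genes and 0.00 over all tested genes. In limma on log2(FPKM + 1), which changes both the scaling and the test, 9 genes were called higher and 10 lower. The genes called lower included 4 of 5 Atg8 genes, both Atg9 genes, 3 of 7 cathepsins and other hydrolases, and 1 of 3 proton pump subunits. Those called higher were Mitf, Ulk2, Wipi1, Lamp2, Becn1 and Atg5. By library, mimic lay wholly above mimic control in 6 genes, wholly below in 19 and overlapped it in 15, and Mitf was the one called gene whose groups overlapped. This separation was not counted over all tested genes either.

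Atg9b had 1.05, 0.700 and 0.723 CPM in mimic cells, against 1.96, 2.16 and 1.55 CPM in mimic control cells. The log2 fold change was -1.19 (SE 0.162, adjusted p = 3.32e-05), with every mimic library under every control library. Atg9a had 8.72, 9.65 and 9.52 CPM in mimic cells, against 12.3, 11.2 and 13 CPM in mimic control cells (log2 fold change -0.39, SE 0.0751, adjusted p = 6.73e-04). Reads of Atg9a are uncertain, since 25.16% of its exon bases are shared with the lncRNA Gm29253 on the same strand, which had a log2 fold change of -0.37 (adjusted p = 0.00795) in this comparison. A further 12.68% are shared with the antisense gene Ankzf1, and the strand setting of the counting was not given in the sources used here.

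Among the initiation genes, Ulk2 had 11.1, 11.4 and 10.5 CPM in mimic cells, against 9.12, 9.00 and 7.97 CPM in mimic control cells (log2 fold change 0.34, SE 0.0768, adjusted p = 0.00259). Atg101 had 100.4, 90.6 and 88.0 CPM in mimic cells, against 113, 114 and 116 CPM in mimic control cells (log2 fold change -0.30, SE 0.0496, adjusted p = 1.71e-04). Both genes separated the groups completely, in opposite directions. Ulk1 was lower by a log2 fold change of -0.19 (adjusted p = 0.0208) and Atg13 (-0.15, adjusted p = 0.113) was not called; 32.85% of the exon bases of Atg13 are shared with the antisense gene Arhgap1. In the lipid kinase complex, Becn1, its regulatory subunit, had 170.5, 158 and 167 CPM in mimic cells, against 144, 147 and 142 CPM in mimic control cells (log2 fold change 0.19, SE 0.0407, adjusted p = 0.00143). The kinase Pik3c3 (0.03) and the targeting subunit Atg14 (0.10) were not called.

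Wipi1 had 30.6, 31.0 and 34.2 CPM in mimic cells, against 27.7, 26.9 and 23.9 CPM in mimic control cells (log2 fold change 0.29, SE 0.0610, adjusted p = 0.00155). Wipi2 was again lower, with a log2 fold change of -0.19 (adjusted p = 0.00395). In the conjugation machinery, Atg7 had 50.8, 50.9 and 53.9 CPM in mimic cells, against 69.8, 67.2 and 65.0 CPM in mimic control cells (log2 fold change -0.38, SE 0.0467, adjusted p = 1.32e-05). Atg4b, the protease that primes Atg8 proteins, had 43.0, 39.1 and 38.4 CPM in mimic cells, against 52.6, 45.6 and 52.1 CPM in mimic control cells (log2 fold change -0.32, SE 0.0575, adjusted p = 3.98e-04). Atg5 had 46.8, 44.5 and 46.3 CPM in mimic cells, against 40.6, 38.8 and 43.2 CPM in mimic control cells (log2 fold change 0.17, SE 0.0478, adjusted p = 0.0116). Groups did not overlap in any of these genes, so Atg7 and Atg4b fell while Atg5 rose within 1 pathway step. Atg3 (0.17, adjusted p = 0.0730), Atg10 (0.10), Atg12 (-0.06) and Atg16l1 (-0.05) were not called.

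The Atg8 genes lay lower with the mimic by small amounts. The log2 fold change was -0.23 for Map1lc3b (adjusted p = 0.00178), -0.23 for Map1lc3a (adjusted p = 0.0357), -0.18 for Gabarapl2 (adjusted p = 0.0356) and -0.12 for Gabarapl1 (adjusted p = 0.0184), and -0.09 for Gabarap, which was not called (adjusted p = 0.145). Summed, the 5 genes had 429.6, 412 and 433 CPM in mimic cells, against 488, 469.9 and 460.1 CPM in mimic control cells. With FPKM values and limma, Map1lc3b alone of these 5 genes was called. The pseudogene Gm6055 is 99.6% identical to Map1lc3b over the bases they share and had a log2 fold change of -0.31 (adjusted p = 0.0275), so reads of the pair may be split. Optn, a receptor for ubiquitin-marked cargo, was not called (-0.01).

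On the lysosomal side, Atp6v0d1, a subunit of the membrane sector of the proton pump, had 72.5, 73.3 and 68.0 CPM in mimic cells, against 96.2, 88.3 and 96.8 CPM in mimic control cells (log2 fold change -0.40, SE 0.0527, adjusted p = 2.59e-05). Lamp2 had 119, 115 and 113 CPM in mimic cells, against 98.7, 92.1 and 101 CPM in mimic control cells (log2 fold change 0.25, SE 0.0631, adjusted p = 0.00516). Each separated its groups. Gaa (-0.29, adjusted p = 6.35e-04), Ctsa, a carboxypeptidase that protects Neu1 (-0.17, adjusted p = 0.00983), and Neu1 (-0.16, adjusted p = 0.0283) were lower, and so was Tfe3 (-0.22, adjusted p = 0.00290). Atp6v1a (-0.06), Atp6v1h (0.02), Lamp1 (0.03), Mcoln1 (-0.00), Ctsb (-0.00), Ctsl (0.04) and Hexa (-0.08) were not called.

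Mitf, Ctsd and Tfeb turned on mimic replicate 2. Mitf had 11.1, 16.8 and 12.2 CPM in mimic cells, against 11.3, 11.2 and 8.47 CPM in mimic control cells (log2 fold change 0.37, SE 0.131, adjusted p = 0.0348), and without replicate 2 its log2 fold change was 0.16 (adjusted p = 0.295). Ctsd, the aspartic protease of the lysosome, had 81.7, 139 and 74.7 CPM in mimic cells, against 95.9, 89.6 and 91.1 CPM in mimic control cells (log2 fold change 0.09, adjusted p = 0.652), and without replicate 2 it was called lower (log2 fold change -0.25, adjusted p = 0.00231). Tfeb had 2.28, 5.16 and 2.08 CPM in mimic cells, against 2.30, 2.83 and 2.35 CPM in mimic control cells, and its log2 fold change, not called either way, was 0.35 with that library and -0.20 without it.

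In all 3 genes replicate 2 was the highest mimic library, as it was for the macrophage markers: Lyz2 had 15.1, 870.1 and 15.1 CPM and Csf1r 1.17, 53.1 and 0.926 CPM in mimic libraries 1 to 3. With that library 11 of 13 tested macrophage markers were called higher, and without it none was and 2 were called lower. Without it, 5 of the 40 genes were higher and 15 lower, of which 5 and 14 were called the same way with all libraries. Of all 15308 genes then tested, 1734 were higher and 2277 lower. Map1lc3a and Gabarapl1 were no longer called. Ctsd shares 29.2% of its exon bases with Gm49369 on the same strand, which had 328, 554 and 316 CPM in mimic cells, against 357, 343 and 344 CPM in mimic control cells.

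**Figure D4:**
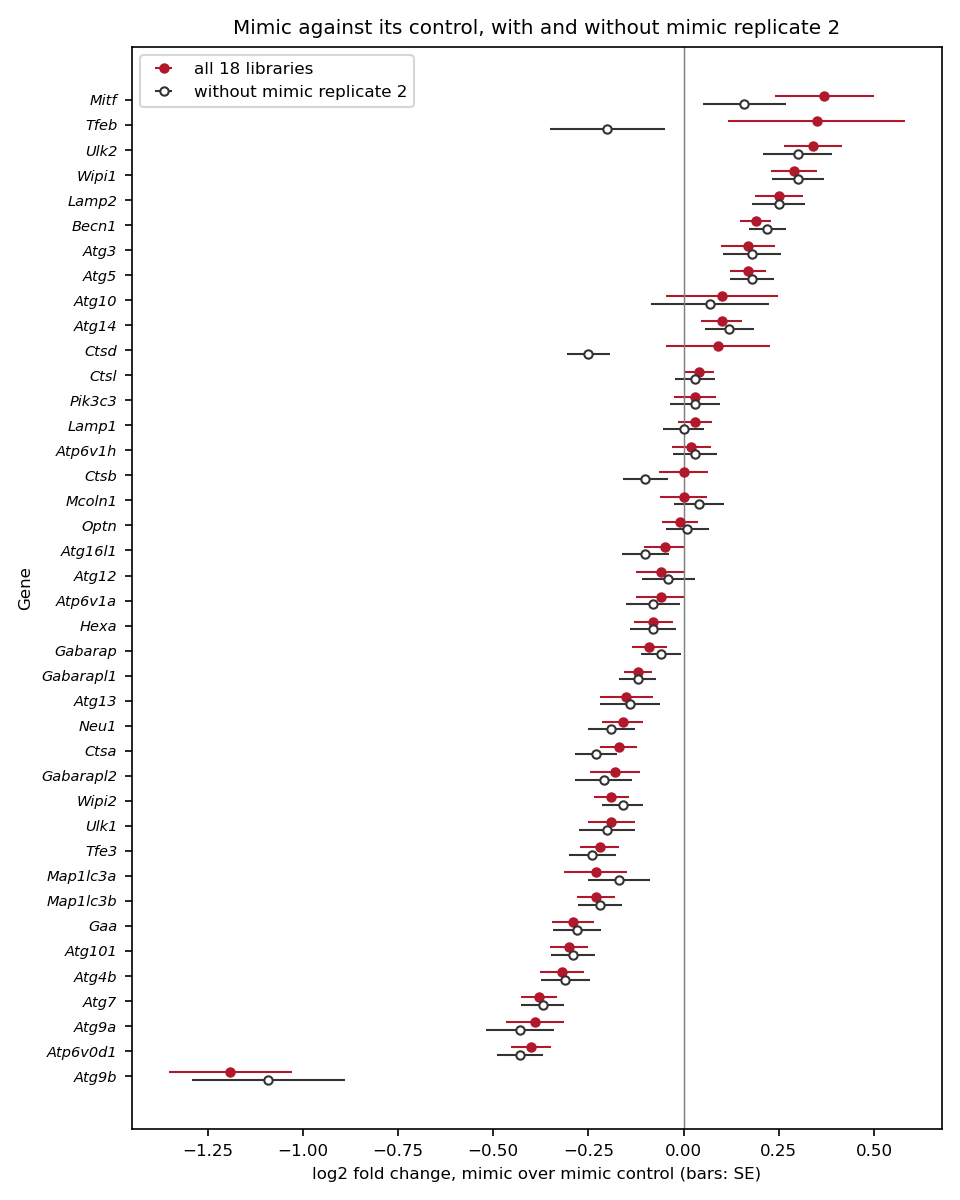
Log2 fold change of each gene in mimic over mimic control cells, with its SE, from all 18 libraries (filled) and without mimic replicate 2 (open). The points of Mitf (0.37 and 0.16), Tfeb (0.35 and -0.20) and Ctsd (0.09 and -0.25) move apart while Atg9b stays the lowest.

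Of the 14 genes whose UTR matched miR-200a-3p, 3 were higher with the mimic (Ulk2, Atg5 and Mitf) and 5 lower (Ulk1, Atg9b, Atg4b, Atg7 and Gabarapl2), with a median log2 fold change of -0.05. Of the 26 genes without a site, 3 were higher and 11 lower, with a median of -0.08. Without mimic replicate 2, Mitf lost its call. Among the 26 genes, Map1lc3a and Gabarapl1 then lost theirs and Ctsd was called lower. The 3 genes with an 8mer site (CAGTGTTA) differed among themselves: Atg9b was lower (-1.19), Ulk2 was higher (0.34) and Atp6v1a was not called (-0.06).

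The inhibitor was compared with its own negative control to show what blocking miR-200a-3p did in high glucose. None of the 40 genes was called higher or lower in edgeR's quasi-likelihood test, and the share of all tested genes was 0.00% in each direction. At an unadjusted p under 0.05, 447 of all tested genes passed in edgeR and 281 in DESeq2, which also called none. The median log2 fold change of the 40 genes was -0.00, with a range from -0.17 (Atg10) to 0.12 (Atg9b). Atg9b had 16.3, 15.9 and 15.9 CPM in inhibitor cells, against 15.6, 14.8 and 14.0 CPM in inhibitor control cells, and all 3 inhibitor libraries were the higher ones, yet its adjusted p was 1. In 38 of the 40 genes the groups overlapped, a share that was not counted over all tested genes. The 95% interval of the log2 fold change lay between -0.2 and 0.2 for 31 genes, and the widest, that of Tfeb, ran from -0.53 to 0.51.

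Whether the reagents differed was tested by subtracting the inhibitor's effect from the mimic's, each taken against its own control. Of the 40 genes, 3 had a higher difference, against 4.63% of all tested genes, and 10 a lower one, against 8.59%. The median difference was -0.04 over the 40 genes and 0.01 over all tested genes. With upper quartile scaling in place of TMM the counts were 4 and 6, and with FPKM values and a pseudocount of 1 they were 2 and 5. The negative differences were led by Atg9b (-1.30 on the log2 scale, SE 0.186, adjusted p = 4.47e-04), Atg9a (-0.47, SE 0.107, adjusted p = 0.00836) and Atg4b (-0.37, SE 0.0827, adjusted p = 0.00679). Atp6v0d1 (-0.33, SE 0.0770, adjusted p = 0.00880), Atg7 (-0.29, SE 0.0692, adjusted p = 0.0111) and Atg101 (-0.27, SE 0.0719, adjusted p = 0.0202) followed, and then Gaa (-0.26), Map1lc3b (-0.24), Tfe3 (-0.23) and Wipi2 (-0.22).

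Positive differences were seen in Ulk2 (0.36, SE 0.102, adjusted p = 0.0260), Wipi1 (0.26, SE 0.0833, adjusted p = 0.0434) and Becn1 (0.20, SE 0.0574, adjusted p = 0.0257). None of the 3 held without inhibitor replicate 2, inhibitor control replicate 2 or mimic control replicate 3, and 1 held without inhibitor replicate 1, inhibitor control replicate 3 or mimic replicate 3. The 10 negative calls became 5 without inhibitor replicate 2 or inhibitor control replicate 3, and 6 without mimic control replicate 1. Without mimic replicate 2, Ctsd joined them (-0.27, adjusted p = 0.0285, against 0.07 with all libraries), and so did Ctsa (-0.25), while Ulk2 (adjusted p = 0.0642), Wipi2 (0.0953), Gaa (0.0733) and Map1lc3b (0.0554) were no longer called. The difference of Mitf (0.31, adjusted p = 0.264) was not called, although Mitf was called in the mimic comparison.

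The remaining comparisons set the negative controls against high glucose and against each other. The cells compared differ at least in transfection or in the negative control used. They share samples, since both controls were set against the same high-glucose libraries, and their values are therefore given side by side. Between mimic control and high glucose, 22 of the 40 genes were higher, against 39.0% of all tested genes, and 16 were lower, against 39.9%. Between inhibitor control and high glucose, 12 were higher, against 40.1% of all tested genes, and 24 were lower, against 39.3%. Between inhibitor control and mimic control, 8 were higher, against 38.5% of all tested genes, and 26 were lower, against 35.7%. The median log2 fold changes of the 40 genes in these comparisons were 0.20, -0.30 and -0.49, while those of all tested genes were 0.01, 0.04 and 0.04.

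The 2 negative controls thus did not give like values in these genes. Over all tested genes 39.0% were higher and 39.9% lower in mimic control than in high-glucose cells, and 40.1% and 39.3% in inhibitor control cells. Each role holds few genes, and the counts by role were not tested against these shares. Of the Atg8 genes, 4 of 5 were higher in mimic control than in high-glucose cells and 1 was lower, whereas all 5 were lower in inhibitor control than in high-glucose cells. Of the conjugation genes, 6 of 7 were higher in mimic control cells and none lower; in inhibitor control cells 4 were higher and 3 lower. Of the cathepsins and other hydrolases, 4 of 7 were higher and 2 lower in mimic control cells, and 2 were higher and 5 lower in inhibitor control cells. All 3 proton pump subunits were higher in mimic control cells, and in inhibitor control cells 2 were higher and Atp6v0d1 was not called (-0.02). In these comparisons, the sum of the fibroblast markers was also lower in both controls than in high-glucose cells (1169 to 1192 and 2378 to 2486 CPM, against 10517 to 11956). Col1a1, Col1a2, Col3a1, Pdgfra and Dcn were each lower in both controls. Thy1 was not lower, with 0.709 to 0.974 CPM in high-glucose, 1.02 to 1.12 in mimic control and 0.844 to 1.23 in inhibitor control cells. Lum was near 0 throughout. The ribosomal RNA gene Rn18s had 811 to 1740 CPM in all inhibitor and inhibitor control libraries, against 8926 to 12368 CPM in all other libraries. The mitochondrial transcripts mt-Nd1, mt-Co1 and mt-Cytb, read beside it, were not lower in those libraries. The part of the fibroblast markers and of this difference in RNA composition in these results was not tested.

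Tfeb (GRCm39 chr17:48047837-48103348, plus strand) had the largest falls against high glucose. It had 2.30, 2.83 and 2.35 CPM in mimic control cells and 2.17, 2.36 and 2.49 CPM in inhibitor control cells, against 18.5, 19.1 and 16.7 CPM in high-glucose cells. The log2 fold changes were -2.86 (SE 0.207, adjusted p = 7.83e-11) for mimic control and -2.95 (SE 0.207, adjusted p = 5.79e-11) for inhibitor control. All 12 transfected libraries had 2.06 to 5.16 CPM and all 6 untransfected ones 16.7 to 22.1 CPM. Tfe3 was lower by much less, with log2 fold changes of -0.12 (adjusted p = 0.0413) in mimic control and -0.53 in inhibitor control cells. Mitf had 11.3, 11.2 and 8.47 CPM in mimic control cells and 17.9, 17.9 and 20.4 CPM in inhibitor control cells, against 11.9, 14.0 and 14.8 CPM in high-glucose cells. Its log2 fold change was -0.39 (SE 0.130, adjusted p = 0.00988) in mimic control and 0.47 (SE 0.125, adjusted p = 0.00214) in inhibitor control cells, so the 3 factors did not move together. Inhibitor control over mimic control was 0.86 for Mitf (SE 0.128, adjusted p = 5.14e-06).

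Atg9b had 1.96, 2.16 and 1.55 CPM in mimic control cells and 15.6, 14.8 and 14.0 CPM in inhibitor control cells, against 5.16, 5.93 and 6.31 CPM in high-glucose cells. It was lower in mimic control (log2 fold change -1.62, SE 0.121, adjusted p = 1.35e-10) and higher in inhibitor control cells (1.35, SE 0.0980, adjusted p = 1.02e-10). Inhibitor control over mimic control came to 2.97 (SE 0.114, adjusted p = 1.48e-14), the widest difference between controls in the set. Every mimic and mimic control library (0.700 to 2.16 CPM) lay under every inhibitor and inhibitor control library (14.0 to 16.3 CPM). The antisense gene Nos3 shares 7.53% of the exon bases of Atg9b and averaged 13.7 reads per library, against 345.1 for Atg9b. Atg9a was lower in both controls, by log2 fold changes of -0.51 in mimic control and -1.04 (SE 0.0739, adjusted p = 6.83e-11) in inhibitor control cells, with 12.3, 11.2 and 13 CPM and with 8.78, 8.72 and 7.74 CPM, against 18.6, 17.4 and 16.0 CPM in high-glucose cells. Gm29253, which overlaps Atg9a on the same strand, had log2 fold changes of -0.40 in mimic control and -1.0 in inhibitor control cells.

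Of the initiation kinases, Ulk1 had 19.2, 17.3 and 18.6 CPM in mimic control cells and 19.0, 18.4 and 18.1 CPM in inhibitor control cells, against 47.5, 46.0 and 46.6 CPM in high-glucose cells. Its log2 fold changes were nearly equal, at -1.35 (SE 0.0593, adjusted p = 2.21e-14) and -1.34 (SE 0.0590, adjusted p = 3.39e-14). Ulk2 had 9.12, 9.00 and 7.97 CPM in mimic control cells and 21.3, 24.6 and 23.9 CPM in inhibitor control cells, against 34.5, 35.0 and 38.0 CPM in high-glucose cells. It was lower in mimic control (-2.04, SE 0.0728, adjusted p = 7.16e-16) than in inhibitor control cells (-0.62), and inhibitor control over mimic control was 1.42 (SE 0.0735, adjusted p = 9.67e-13). Atg13 had 31.3, 27.9 and 28.2 CPM in inhibitor control cells, against 21.5, 21.8 and 19.8 CPM in mimic control cells (0.47, SE 0.0676, adjusted p = 3.00e-06), and against high glucose its log2 fold change was -0.33 for mimic control and 0.14, not called, for inhibitor control.

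Atg101 had 44.5, 44.4 and 41.8 CPM in inhibitor control cells, against 113, 114 and 116 CPM in mimic control cells (log2 fold change -1.40, SE 0.0514, adjusted p = 8.24e-15), and the high-glucose libraries lay between them at 74.1 to 77.8 CPM. Among the readers, Wipi1 had 27.7, 26.9 and 23.9 CPM in mimic control cells and 59.0, 62.1 and 59.3 CPM in inhibitor control cells, against 107, 98.8 and 109 CPM in high-glucose cells. Its log2 fold change was -2.0 (SE 0.0597, adjusted p = 4.41e-17) in mimic control and -0.80 in inhibitor control cells, and inhibitor control over mimic control was 1.20 (SE 0.0597, adjusted p = 5.42e-13). Wipi2 was higher in mimic control (0.49) and not called in inhibitor control cells (-0.08). In the lipid kinase complex Pik3c3 (-0.41 and -0.39) and Atg14 (-0.53 and -0.60) were lower in mimic control and inhibitor control cells alike, and their 6 untransfected libraries all lay above their 12 transfected ones. Becn1 had a log2 fold change of -0.14 in mimic control and 0.12 in inhibitor control cells, with 176, 172 and 169 CPM in inhibitor control cells, against 144, 147 and 142 CPM in mimic control cells (0.26, SE 0.0406, adjusted p = 1.07e-05).

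In the conjugation machinery, Atg3 (GRCm39 chr16:44978748-45008901, plus strand) had 214, 268 and 239.5 CPM in mimic control cells and 175, 170.3 and 195 CPM in inhibitor control cells, against 75.9, 71.1 and 68.9 CPM in high-glucose cells. Its log2 fold change was 1.74 (SE 0.0746, adjusted p = 1.47e-14) in mimic control and 1.32 (SE 0.0741, adjusted p = 1.60e-12) in inhibitor control cells. Atg7 had 69.8, 67.2 and 65.0 CPM in mimic control cells and 20.6, 21.3 and 20.5 CPM in inhibitor control cells, against 23.8, 23.2 and 22.0 CPM in high-glucose cells. It rose in mimic control cells (1.55, SE 0.0489, adjusted p = 1.06e-16) and was slightly lower in inhibitor control cells (-0.15, adjusted p = 0.0133), so that inhibitor control over mimic control was -1.69 (SE 0.0494, adjusted p = 3.02e-16). Atg10, which joins Atg12 to Atg5, had 2.64, 3.25 and 3.18 CPM in inhibitor control cells, against 1.76, 2.02 and 1.46 CPM in high-glucose cells (0.79, SE 0.151, adjusted p = 8.19e-05), and its log2 fold change in mimic control cells was 0.66. The antisense gene Rps23 shares 2.67% of the exon bases of Atg10 and averaged 32060.8 reads per library, against 86.3 for Atg10. Rps23 had log2 fold changes of 1.03 in mimic control and 0.56 in inhibitor control cells, and its part in the Atg10 values was not tested. Atg5 was higher in mimic control (0.46) and inhibitor control cells (0.24). Atg4b (0.35 and -0.45) and Atg12 (0.17 and -0.49) were higher in mimic control and lower in inhibitor control cells, and Atg16l1 was not called in mimic control (-0.09) and higher in inhibitor control cells (0.12, adjusted p = 0.0476).

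Map1lc3a stood apart from the other Atg8 genes. It had 37.6, 37.4 and 36.8 CPM in mimic control cells and 21.9, 19.4 and 18.8 CPM in inhibitor control cells, against 78.6, 77.1 and 68.5 CPM in high-glucose cells. The log2 fold changes were -1.0 (SE 0.0804, adjusted p = 3.97e-10) and -1.90 (SE 0.0840, adjusted p = 3.44e-14), and all its transfected libraries lay under all untransfected ones. The other 4 were higher in mimic control and lower in inhibitor control cells, with log2 fold changes of 0.30 and -0.15 for Map1lc3b, 0.30 and -0.36 for Gabarap, 0.30 and -0.26 for Gabarapl1, and 0.20 and -0.65 for Gabarapl2. Optn showed the same order (0.46 and -0.33).

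**Figure D5:**
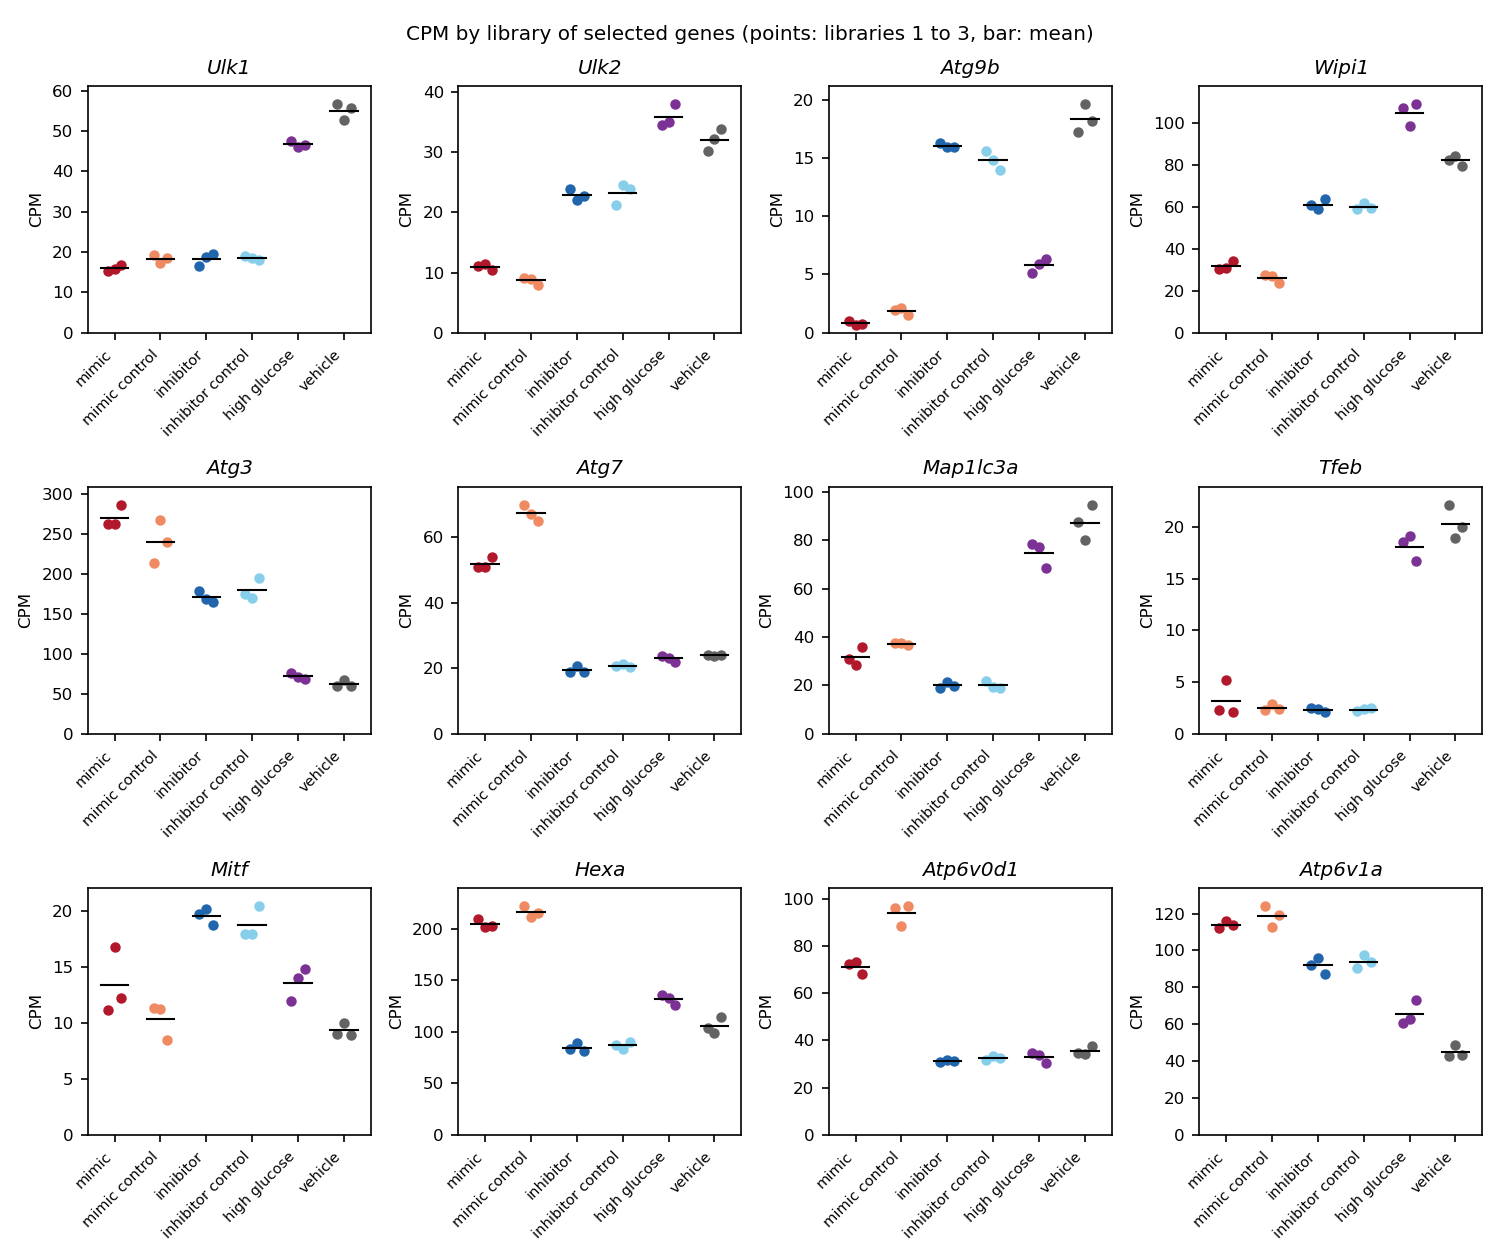
CPM of 12 genes in every library of mimic, mimic control, inhibitor, inhibitor control, high-glucose and vehicle cells; points are libraries, bars are means and each axis starts at 0. Tfeb and Ulk1 are low in all transfected groups, Atg7 and Atp6v0d1 are high in the mimic pair alone, and Atg9b is lowest in the mimic pair (0.700 to 2.16 CPM).

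Among the proton pump subunits, Atp6v1h, a regulator of the catalytic sector, had 85.0, 81.6 and 87.8 CPM in mimic control cells and 39.3, 38.7 and 43.3 CPM in inhibitor control cells, against 27.2, 25.9 and 28.4 CPM in high-glucose cells. Its log2 fold change was 1.64 (SE 0.0544, adjusted p = 2.26e-16) in mimic control and 0.57 (SE 0.0549, adjusted p = 7.85e-09) in inhibitor control cells. Atp6v1a had 124, 113 and 119 CPM in mimic control cells and 90.4, 97.5 and 94.0 CPM in inhibitor control cells, against 60.4, 62.7 and 72.9 CPM in high-glucose cells, with log2 fold changes of 0.86 (SE 0.0654, adjusted p = 1.70e-10) and 0.52 (SE 0.0654, adjusted p = 3.82e-07). Both subunits were above all untransfected libraries in every transfected library. The antisense gene Naa50 shares 4.54% of the exon bases of Atp6v1a and averaged 4112.3 reads per library, against 3080.3 for Atp6v1a. Naa50 had log2 fold changes of 1.42 in mimic control and 1.65 in inhibitor control cells, and its part in the Atp6v1a values was not tested. Atp6v0d1 had 96.2, 88.3 and 96.8 CPM in mimic control cells and 31.8, 33.2 and 32.7 CPM in inhibitor control cells, against 34.7, 33.6 and 30.5 CPM in high-glucose cells. It was higher in mimic control cells (1.51, SE 0.0549, adjusted p = 9.87e-16), and inhibitor control over mimic control was -1.53 (SE 0.0550, adjusted p = 6.32e-15).

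Among the hydrolases, Neu1 had 40.2, 40.8 and 39.6 CPM in mimic control cells and 19.4, 18.9 and 19.0 CPM in inhibitor control cells, against 17.2, 18.1 and 16.5 CPM in high-glucose cells. It rose in mimic control cells by a log2 fold change of 1.22 (SE 0.0560, adjusted p = 4.53e-14) and in inhibitor control cells by 0.14 (adjusted p = 0.0289), and inhibitor control over mimic control was -1.08 (SE 0.0556, adjusted p = 9.19e-13). Hexa had 87.0, 83.7 and 90.0 CPM in inhibitor control cells, against 222, 212 and 215 CPM in mimic control cells (-1.32, SE 0.0526, adjusted p = 2.48e-14), and its log2 fold changes against high glucose were -0.60 for inhibitor control and 0.72 for mimic control. Gaa had 67.7, 64.2 and 62.7 CPM in mimic control cells and 30.8, 29.3 and 28.0 CPM in inhibitor control cells, against 84.2, 85.6 and 76.2 CPM in high-glucose cells. Inhibitor control was lower than high glucose by -1.48 (SE 0.0568, adjusted p = 3.59e-15) and lower than mimic control by -1.14 (SE 0.0570, adjusted p = 5.46e-13) on the log2 scale, and mimic control was lower than high glucose by -0.34.

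The cathepsins differed from each other in these comparisons. Ctsd had 95.9, 89.6 and 91.1 CPM in mimic control cells and 45.2, 44.0 and 44.2 CPM in inhibitor control cells, against 127, 123 and 120.0 CPM in high-glucose cells (log2 fold changes -0.42 with adjusted p = 0.00873 and -1.47 with SE 0.142 and adjusted p = 8.30e-09). Gm49369, which overlaps Ctsd on the same strand and averaged 12022.3 reads per library, against 3104.2 for Ctsd, had log2 fold changes of -0.44 and -1.47, and reads of the pair may be shared. Ctsb was higher in mimic control (0.19) and lower in inhibitor control cells (-0.89), and Ctsa was not called in mimic control (-0.00) and lower in inhibitor control cells (-0.60). Ctsl was higher by 0.31 in each, with 1922 to 2071 CPM in all transfected libraries, against 1600 to 1736 CPM in all untransfected ones. Of the lysosomal membrane proteins, Lamp1 was higher in mimic control (0.63) and lower in inhibitor control cells (-0.26), and Mcoln1, a calcium channel of the lysosome, was higher in both (0.39 and 0.21). Lamp2 was lower in mimic control (-0.14, adjusted p = 0.0469) and not called in inhibitor control cells (0.01).

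Against high glucose, 39.0% of all tested genes were higher and 39.9% lower in mimic control cells, and 40.1% and 39.3% in inhibitor control cells. Most genes were thus called, and the counts that follow were not tested against these shares. Of the 12 genes with CACGTG in the promoter, 8 were higher and 3 lower in mimic control than in high-glucose cells, with a median log2 fold change of 0.43. In inhibitor control cells 5 were higher and 6 lower, with a median of -0.08. Of the 21 genes whose promoter lacked CACGTG, 11 were higher and 10 lower in mimic control cells (median 0.20), and 4 were higher and 14 lower in inhibitor control cells (median -0.36). In inhibitor control against mimic control cells, where 35.7% of all tested genes were lower, 6 of 6 genes with TCACGTGA, 10 of 12 with CACGTG and 12 of 21 without it were lower. With the mimic, 1 of the 12 genes was higher and 4 were lower.

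Over the 6 groups, 6 genes had every transfected library above every untransfected one, namely Atg3, Atg10, Mcoln1, Ctsl, Atp6v1a and Atp6v1h. In 9 genes every transfected library lay below, namely Ulk1, Ulk2, Atg9a, Pik3c3, Atg14, Wipi1, Map1lc3a, Tfeb and Gaa. The other 25 overlapped. Set against all mimic and mimic control libraries, all inhibitor and inhibitor control libraries were lower in 24 genes, higher in 6 and overlapping in 10. These are descriptions of where libraries lie, with no test and with no such count over all tested genes. Against high glucose, 39.0% and 39.9% of all tested genes were called higher and lower in mimic control cells. In inhibitor control cells the shares were 40.1% and 39.3%, and between inhibitor control and mimic control they were 38.5% and 35.7%. Transfection cannot be told apart from whatever else differed between the pairs of groups.

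Other autophagy and lysosome genes were read from 10 lists with 142 tested genes. Of these, 14 (9.86%) were higher and 15 (10.6%) lower in high glucose than in vehicle cells, against 12.0% and 12.2% of all tested genes. With the mimic 22 (15.5%) were higher and 41 (28.9%) lower than in mimic control cells, against 15.8% and 18% of all tested genes. Without mimic replicate 2, 11 were higher and 44 lower, and of all 15308 genes then tested 1734 were higher and 2277 lower. None was called in inhibitor cells. With high glucose, the widest change among the called hydrolases was a fall, that of Idua (log2 fold change -0.67, adjusted p = 2.64e-04), and Ids rose by 0.64. Asah1, an acid ceramidase, averaged 114 ± 4.13 CPM, against 79.4 ± 6.90 CPM in vehicle cells (SD, n = 3 each, log2 fold change 0.53, adjusted p = 1.29e-06). Nprl3, from the nutrient control list, fell (-0.51, adjusted p = 1.04e-04). Stx17, the syntaxin of autophagosome fusion, averaged 57.7 ± 1.45 CPM in high-glucose cells and 45.2 ± 2.19 CPM in vehicle cells (0.35, adjusted p = 6.63e-05). In mannose-6-phosphate sorting, which sends hydrolases to the lysosome, 3 of 6 genes were lower in high glucose and none higher, led by Gnptab (-0.34).

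With the mimic, Rb1cc1, a scaffold of the Ulk1 complex, averaged 102 ± 2.27 CPM in mimic cells and 67.1 ± 2.39 CPM in mimic control cells (log2 fold change 0.60, adjusted p = 1.39e-04). Bnip3, a receptor for mitochondria, rose by 0.52 (adjusted p = 1.61e-04), and Mtor, the kinase that restrains autophagy, fell by 0.35 on the log2 scale (adjusted p = 5.30e-05). Igf2r, a mannose-6-phosphate receptor, averaged 146 ± 6.11 CPM in mimic cells and 196 ± 1.45 CPM in mimic control cells (-0.42, adjusted p = 1.62e-05). Of 17 further proton pump subunits, 5 were lower and none higher, and of 13 fusion genes 6 were lower and 1 higher. Without mimic replicate 2, 6 pump subunits and 6 fusion genes were lower and none of either was higher. Of all 15308 genes then tested, 1734 were higher and 2277 lower. Of 37 lysosomal hydrolases, 8 were higher and 7 lower with all libraries, and none was higher and 10 were lower without mimic replicate 2. Ctss, Ctsc and Ctsh, cathepsins known in immune cells, had log2 fold changes of 4.11, 3.63 and 2.39 with that library and of -0.09, -0.74 and -0.58, none called, without it.

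Against high glucose, 60 of the 142 genes were higher and 59 lower in mimic control cells, where 39.0% and 39.9% of all tested genes were, and 42 were higher and 74 lower in inhibitor control cells, where 40.1% and 39.3% were. Of the 37 further hydrolases, 24 were lower and 7 higher in mimic control (median log2 fold change -0.71) and 28 lower and 2 higher in inhibitor control cells (median -0.99). Of 21 nutrient control genes, 15 were higher and 3 lower in mimic control cells, and 12 were higher and 8 lower in inhibitor control cells. Rragd, a GTPase that ties nutrients to the mTOR kinase, averaged 15.3 ± 1.23 CPM in mimic control and 11.7 ± 0.543 CPM in inhibitor control cells, against 1.98 ± 0.554 CPM in high-glucose cells (log2 fold changes 2.95 and 2.55). Sqstm1, the cargo receptor p62, averaged 2121 ± 60.1 CPM in mimic control and 1641 ± 33.5 CPM in inhibitor control cells, against 792 ± 33.8 CPM in high-glucose cells (1.42 and 1.05). Igf2r was lower in both, with 196 ± 1.45 CPM in mimic control and 92.2 ± 1.88 CPM in inhibitor control cells, against 542 ± 32.4 CPM in high-glucose cells (SD, n = 3 each). Between inhibitor control and mimic control, 32 of the 142 genes were higher and 76 lower, against 38.5% and 35.7% of all tested genes.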

How the data were processed

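Sequencing gave paired 150 nt reads of stranded mRNA libraries. Per the labels' protocols, FASTX-Toolkit 0.0.13 did the trimming, with reads under 16 nt or with over 2 N bases removed, and HISAT2 placed reads on GRCm39, allowing 4 mismatches and counting unique hits. The authors deposited raw read counts per gene and FPKM values (fragments scaled to gene length and library size). DESeq2 appears in the submitters' processing notes with no stated role. Not given in the sources used here are the program, the annotation and the strand option of the counting, so reads of overlapping genes may be shared, and dropping multiply mapped reads lowers genes with near-identical copies.

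The deposited counts went into edgeR 4.0.16 (R 4.3.3) with TMM scaling, a filter (filterByExpr over the groups, at least 10 reads and a total of 15), a quasi-likelihood fit with 1 term per group to all 18 libraries (12 residual degrees of freedom) and Benjamini-Hochberg adjustment over 15074 genes, with calls at an adjusted p under 0.05. CPM values use the TMM-scaled totals of the genes that passed the filter. The difference between mimic and inhibitor effects was tested in the same fit. DESeq2 1.42.0, limma 3.58.1 on log2(FPKM + 1) and log2(FPKM + 0.1), other scalings, no filter, fits of the compared groups alone, a replicate block and leaving out each library were alternatives. The procedure was tested on simulated data. The genes, roles, lists and tests were chosen with earlier results of these data known. By the naming rule, all 40 genes are named, up to 6 called genes in each direction of a comparison are given by library, and up to 3 called genes per further list may be named. Sites and promoter letters were searched in GENCODE M39 and RefSeq sequences by exact match. Only 6 of the sites are printed, and those of Atg12 were passed over.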

Additional observations from a re-analysis of the deposited data

How the results depend on the processing

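The counts of called genes stayed within 1.5 times of those reported, apart from the following. Genes called lower with the mimic numbered 16 in edgeR and 10 in limma on log2(FPKM + 1) and on log2(FPKM + 0.1). Genes with a lower difference between mimic and inhibitor effects numbered 10, and 6 with upper quartile scaling, 5 in limma on log2(FPKM + 1) and 4 on log2(FPKM + 0.1). Leaving out each library in turn gave 5 to 10 of these, 0 to 3 genes with a higher difference and, in high glucose against vehicle, 6 to 11 lower genes. The cause was not tested. Leaving out mimic libraries in turn, the log2 fold change of Ctsd with the mimic ranged from -0.25 (without replicate 2) to 0.24, against 0.09, and its difference of effects from -0.27 to 0.22, against 0.07. Calls that held in every alternative numbered 5 of 6 higher and 6 of 11 lower for high glucose, 4 of 6 and 10 of 16 for the mimic, 19 of 22 and 12 of 16 for mimic control against high glucose, 9 of 12 and 22 of 24 for inhibitor control against high glucose, 7 of 8 and 24 of 26 for inhibitor control against mimic control, and 0 of 3 and 4 of 10 for the difference of effects. Upper quartile scaling moved the median of all genes in inhibitor control over mimic control to 0.15, against 0.04.

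Libraries with the same replicate number did not deviate together (correlations of -0.174 to 0.103), so the numbers do not pair them. With the replicate block the counts, higher and lower, were 6 and 10 for high glucose, 6 and 16 for the mimic, 22 and 15, 12 and 24, and 8 and 26 for the controls, 2 and 10 for the difference of effects, and 0 and 0 for the inhibitor. Depth was similar in all libraries. With 3 libraries per group, small changes are imprecise. In the inhibitor comparison the widest 95% intervals were those of Tfeb (-0.53 to 0.51), Atg10 (-0.48 to 0.15), Ctsd (-0.29 to 0.33) and Mitf (-0.21 to 0.33). Atg10 had few reads. Tfeb, Ctsd and Mitf were highest in replicate 2 among the mimic libraries, and the fit shares its estimate of the spread over all groups. The cause of the wide intervals was not tested.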

Other observations

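The high-glucose comparison and the mimic comparison share no libraries, so their calls in the 40 genes can be set side by side. The genes called lower in both were Ulk1, Atg101, Atg9a, Atg9b, Wipi2, Map1lc3a, Gaa and Neu1. These 8 genes are 8 of the 16 called lower with the mimic and 8 of the 11 called lower in high glucose. Of these genes, only Atg101 and Atg9b kept both calls in every alternative. Atg9a, Wipi2, Map1lc3a and Gaa lost the high-glucose call in some alternative, and Ulk1, Map1lc3a and Neu1 lost the mimic call. Wipi1, Mitf and Lamp2, 3 genes of the 6 called higher in each comparison, were higher in both, and the mimic call of Mitf did not hold without mimic replicate 2. Atg5 was higher with the mimic (0.17 on the log2 scale) and lower in high glucose (-0.17), and neither call held in every alternative. In 13 genes neither comparison gave a call. No test of this overlap was made, and calls shared by both comparisons were not counted over all tested genes.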
